A study of Mus musculus with 59 samples.

Results

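The neutrophil genes S100a8, S100a9, Lcn2, Camp, Ltf and Ngp were followed through the first 8 weeks after a myocardial infarction in the mouse. They were chosen by name, and every probe set assigned to exactly 1 of these 6 genes was taken, whatever its values. That gave 7 probe sets of the 12488 on the array, or 6 genes of the 8251 that had a probe set of their own. Lcn2 had 2 probe sets, and the other genes had 1 each.

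Total RNA from pieces of left ventricle was measured on Affymetrix oligonucleotide arrays, 1 piece per array and 59 arrays in all. In mice with an infarct, the infarcted tissue was sampled below the left anterior descending coronary artery, towards the apex, and remote tissue was sampled above it. Tissue of sham-operated mice at the upper position served as the control for either region, per the labels. Surgery preceded sampling by 1, 4, 24 or 48 h or by 1 or 8 weeks, with 3 arrays per region and time, and 5 sham mice also gave a lower piece. The labels state no strain, age, sex or genotype, and surgery was common to all groups. They do not say that the 3 arrays of a group came from separate mice. The number in each title was read as a mouse number, and the p values measure only the spread between these samples. Arrays 1, 2 and 3 of a group are named here in the order of their title numbers. From 1 h to 48 h the sham and infarcted mice had title numbers in separate ranges, so that sets of mice handled apart cannot be told apart from the effect of surgery at those times.

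Neutrophils are the first white blood cells to enter an injured tissue. S100a8 and S100a9 encode calcium-binding proteins that pair as calprotectin, fill the neutrophil cytosol, and act outside the cell as alarm signals through receptors such as Tlr4 and Ager. Lcn2 encodes lipocalin 2, which binds bacterial siderophores and so withholds iron; Ltf encodes lactoferrin, which binds iron itself; Camp encodes the antimicrobial cathelicidin; and Ngp encodes a cystatin-related granule protein. The last 4 proteins are stored in secondary granules, and their messages are made mainly by immature neutrophils in the bone marrow. Lcn2 is also induced in many other cell types during inflammation, as an acute phase gene.

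S100a8 and S100a9 lie next to each other on chromosome 3, Lcn2 lies on chromosome 2, and Camp, Ltf and Ngp lie on chromosome 9 with other genes between them. The 250 bases before the annotated start are shown for the 3 genes called higher in the infarct at 4 h, 24 h and 48 h. They are also shown for Ngp, whose level was low in all but 1 array. They are from RefSeq, build GRCm38.p6, and run 5′ to 3′ in the direction of the gene, for S100a8 at chr3:90668821-90669070, plus strand, S100a9 at chr3:90695722-90695971, minus strand, Lcn2 at chr2:32387740-32387989, minus strand, and Ngp at chr9:110419558-110419807, plus strand. Capitals mark matches to the letters TTNNGNAA, a form of the site bound by CCAAT/enhancer binding proteins, or to their reverse complement TTNCNNAA.
S100a8: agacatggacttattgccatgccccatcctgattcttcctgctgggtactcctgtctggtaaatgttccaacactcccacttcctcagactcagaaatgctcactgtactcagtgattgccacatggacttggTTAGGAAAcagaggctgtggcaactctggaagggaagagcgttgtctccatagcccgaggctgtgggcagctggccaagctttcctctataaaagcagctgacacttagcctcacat
S100a9: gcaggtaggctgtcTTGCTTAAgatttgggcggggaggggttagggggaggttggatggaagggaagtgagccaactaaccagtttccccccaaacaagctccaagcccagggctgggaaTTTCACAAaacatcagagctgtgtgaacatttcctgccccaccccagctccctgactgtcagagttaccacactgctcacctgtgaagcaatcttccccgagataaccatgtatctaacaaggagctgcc
Lcn2: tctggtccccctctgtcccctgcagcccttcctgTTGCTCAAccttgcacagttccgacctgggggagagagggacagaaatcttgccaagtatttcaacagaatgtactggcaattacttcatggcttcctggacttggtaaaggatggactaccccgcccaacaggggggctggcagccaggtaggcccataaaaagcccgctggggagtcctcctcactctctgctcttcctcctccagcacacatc
Ngp: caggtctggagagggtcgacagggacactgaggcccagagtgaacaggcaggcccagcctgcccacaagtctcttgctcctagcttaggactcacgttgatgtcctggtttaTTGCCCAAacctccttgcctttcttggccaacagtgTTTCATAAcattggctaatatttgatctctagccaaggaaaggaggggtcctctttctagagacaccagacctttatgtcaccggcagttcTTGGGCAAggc

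CCAAT/enhancer binding proteins are the leading transcription factors of granulocyte development. S100a8 had 1 match, beginning 117 bases before the start, and Lcn2 had 1, beginning 216 bases before it. S100a9 had 2 matches, at 236 and 130 bases, and Ngp had 3, at 138, 102 and 11 bases. Ltf and Camp are not printed. Ltf had 2 matches, and Camp, which was called higher in the infarct at 1 week, had none in this window. Both strands were searched, and the same letters occurred in 36.8% of 32851 promoters of this length. The NF-kB motif occurred in 3.9% of them and in none of the 6. A match describes the letters only, and binding was not measured.

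Across the 6 genes, the calprotectin genes S100a8 and S100a9 rose most, and in the infarct. S100a8 rose 29.1-fold and S100a9 39.8-fold over sham there at 24 h. Lcn2 probe set 160564_at rose 5.38-fold in the infarct and 4.78-fold in the remote region at that time. The other Lcn2 probe set, 161684_r_at, overlapped with sham in both regions then and was not called. Which probe set follows the gene was not tested. Camp, Ltf and Ngp stayed at low intensities, and few of their comparisons passed the test. Intensities are on the scale deposited by the authors, in arbitrary units. A difference was called when limma gave an adjusted p below 0.05, over the 8140 probe sets that reached an intensity of 108.2 on at least 3 arrays. Of the 7 probe sets, 6 passed that filter and Ngp did not. Log2 changes were taken after adding 45.6 to each intensity, which shrinks the changes of dim probe sets, and folds are on that scale. These are whole pieces of tissue, in which more cells of a type and more RNA per cell cannot be told apart.

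S100a8 (probe set 103448_at) read 109.7, 125.3 and 112.1 on arrays 1, 2 and 3 of sham tissue at 24 h. In the infarct it read 5089.5, 7460.4 and 2230.5 at that time. All 3 infarct arrays lay far above all 3 sham arrays, with array 3 the lowest of the infarct. The change of S100a8 against sham was 4.86 ± 0.46 (log2, SE, n = 3 per group; limma adjusted p = 2.75e-11). At 48 h the infarct arrays read 6867.8, 6498.8 and 6055.7, against 145.1, 141.5 and 201 in sham. They lay closer together than at 24 h, and the change was 4.98 ± 0.46 (adjusted p = 1.34e-11).

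S100a8 was already higher at 4 h, when the infarct read 855.3, 654 and 995.4 and sham read 239.4, 203.1 and 250.6. The groups did not overlap, and the change was 1.66 ± 0.46 (limma adjusted p = 0.0133). Without sham array 2 the change was 1.58 (adjusted p = 0.0505), and without infarct array 3 it was 1.51 (adjusted p = 0.0625). At 1 week S100a8 read 684.8, 1226.1 and 513.9 in the infarct and 166.5, 370.2 and 121.8 in sham. The groups did not overlap, and S100a8 was still raised, by 1.71 ± 0.46 (adjusted p = 0.00143). At 1 h the infarct arrays, at 553.4, 301.6 and 334, all lay above the sham arrays, at 152.6, 104 and 152.5, but the change of 1.25 ± 0.46 did not pass (adjusted p = 0.098). At 8 weeks the 3 infarct arrays, at 293.1, 517.4 and 249.3, again lay above sham, at 157.1, 101.3 and 147, with a change of 1.10 ± 0.46 that did not pass (adjusted p = 0.0846).

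S100a9 (103887_at), the partner gene, had its highest infarct mean at 24 h, where S100a8 had it at 48 h, though neither gene's infarct effect differed between those times by the test. At 24 h S100a9 read 46, 65.2 and 65.6 in sham and 4036.2, 6701.9 and 2162.3 in the infarct. The groups did not overlap, array 3 was again the lowest of the infarct, and the change was 5.31 ± 0.53 (limma adjusted p = 9.67e-11). At 48 h it read 42, 67.4 and 95 in sham and 4132.1, 3954.1 and 3819.2 in the infarct, a change of 5.17 ± 0.53 (adjusted p = 1.37e-10). At 4 h the infarct arrays, at 751.6, 702.4 and 770.7, lay within a narrow range above sham, at 125.6, 113.6 and 128.6. The change was 2.23 ± 0.53 (adjusted p = 0.00346). At 1 h S100a9 did not pass either (1.54 ± 0.53, adjusted p = 0.0714), though it did without sham array 3 (1.90, adjusted p = 0.0432). The later calls of the pair were not the same. At 1 week it read 290.8, 549 and 201.3 in the infarct and 92.5, 291.7 and 81.9 in sham, so that the groups overlapped and the change of 1.02 ± 0.53 did not pass (adjusted p = 0.0953). Without sham array 2, the highest for both S100 genes at that time, it was 1.47 (adjusted p = 0.0291), and without infarct array 3 it was 1.35 (adjusted p = 0.0497). At 8 weeks S100a9 read 171.2, 271.2 and 104.8 in the infarct and 77.5, 20.5 and 19 in sham, a change of 1.43 ± 0.53 with an adjusted p of 0.0489. That call rested on single arrays: it was lost when any infarct array, or sham array 2 or 3, was left out (changes of 1.10 to 1.70, adjusted p up to 0.209). It was also lost with no filter (adjusted p = 0.0594), with the spread of only the 2 groups (adjusted p = 0.0823) and with a larger offset (0.71, adjusted p = 0.172).

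**Figure D1:**
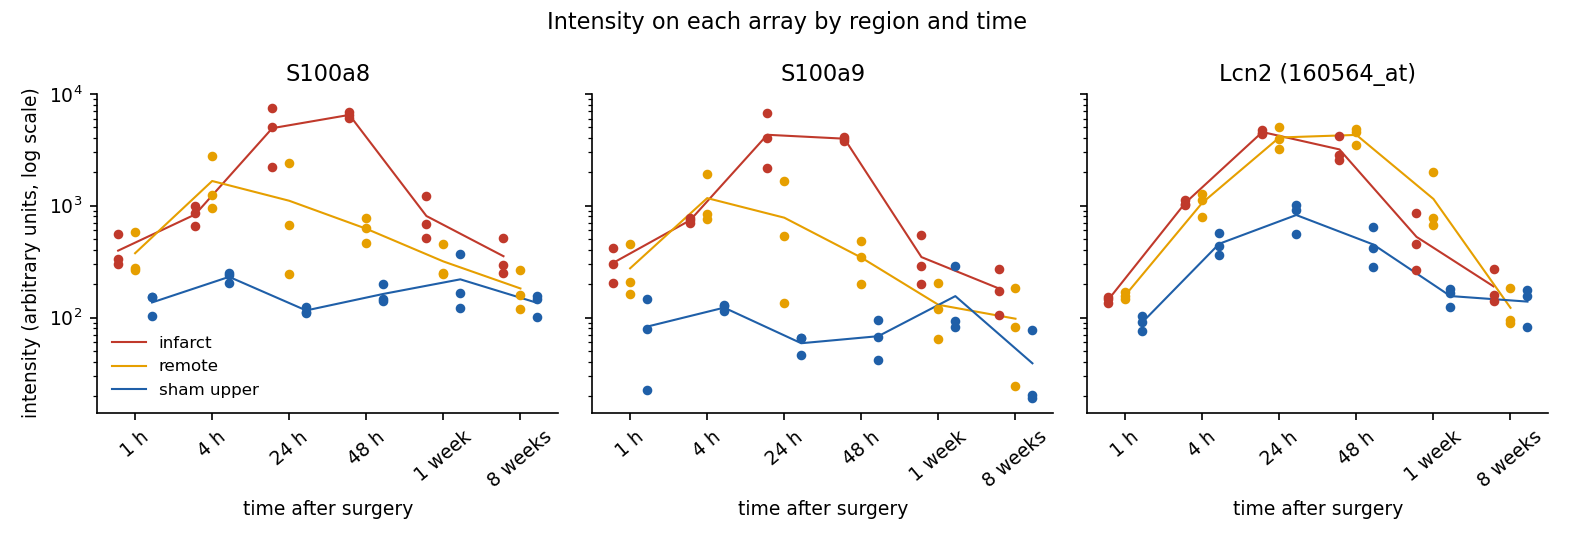
Intensity of S100a8, S100a9 and Lcn2 probe set 160564_at on each array (points, log scale, arbitrary units) against time after surgery, evenly spaced, for infarct, remote and sham upper tissue, with lines through the means of 3 arrays. The highest S100a8 array of the infarct is at 24 h, at 7460.4, though the infarct mean is highest at 48 h. In remote tissue the highest is array 1 at 4 h, at 2791.7. Remote arrays 2 and 3 at 4 h read 956.6 and 1234.8, and the remote arrays of 4 h and 24 h overlap. Lcn2 160564_at reaches similar levels in both regions, 4792.7 in the infarct and 5017.7 in remote tissue at 24 h.

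In remote tissue at 4 h S100a8 read 2791.7, 956.6 and 1234.8, and S100a9 read 1901.9, 766.6 and 834.7. Every one of these arrays lay above the sham arrays, and array 1 was the highest for both genes. S100a8 was higher than in sham by 2.48 ± 0.46 (limma adjusted p = 0.000648) and S100a9 by 2.73 ± 0.53 (adjusted p = 0.00108). Remote array 1 at 4 h also had a summed adipocyte marker intensity of 6554, against 1505 and 1392 on arrays 2 and 3, and a summed macrophage and monocyte intensity of 15330 against 9415 and 10240. Without it the changes were 2.04 (adjusted p = 0.0294) and 2.33 (adjusted p = 0.0365), so that both calls held. With array 1 the remote means of both genes were higher at 4 h than at 24 h, but the arrays of those times overlapped, and the step from 4 h to 24 h did not pass (-0.22 and -0.33, adjusted p = 0.978 and 0.968). At 24 h the remote arrays differed widely, with S100a8 at 243.8, 672.8 and 2401.9 and S100a9 at 135.3, 535.6 and 1671.2. All lay above sham, and both genes rose, by 2.26 ± 0.46 (adjusted p = 0.00153) and 2.40 ± 0.53 (adjusted p = 0.00361). Array 3 was the highest, and its summed neutrophil marker intensity was 1696 against 1032 and 992.8 on arrays 1 and 2. Its macrophage and monocyte sum was 16840 against 9046 and 8864. Without this array S100a8 was 1.43 above sham (adjusted p = 0.0368) and S100a9 1.58 (adjusted p = 0.0656), and the part of those cells in the result was not tested. With the spread taken from only the 2 groups, neither gene passed at 24 h (adjusted p = 0.162 and 0.161).

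At 48 h remote S100a8 read 628.5, 774.3 and 462.1, and S100a9 read 344.2, 484.9 and 200.9. Both lay above all sham arrays and passed, at 1.67 ± 0.46 (limma adjusted p = 0.0173) and 1.73 ± 0.53 (adjusted p = 0.0324). The S100a8 call was lost without remote array 2 or sham array 1 or 2, at changes up to 1.61 and adjusted p of 0.0537 to 0.068. The S100a9 call was lost without remote array 1 or 2 or sham array 1 or 2, at changes of 1.47 to 1.74 and adjusted p of 0.0771 to 0.118, and with a larger offset (1.04, adjusted p = 0.0685). At 1 week and 8 weeks neither S100 gene passed in remote tissue, and at 1 h neither did. The changes at 1 week were 0.52 ± 0.46 for S100a8 and -0.13 ± 0.53 for S100a9.

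Lcn2 (160564_at) took another course. It was not above sham at 1 h by the test, with 134.3, 145.8 and 151.8 in the infarct, 146.9, 157.3 and 168.9 in remote tissue and 90.8, 103.5 and 76.5 in sham. At 4 h it read 1130.6, 1019.1 and 1024.5 in the infarct, 1122.2, 1258.1 and 798.7 in remote tissue and 569.8, 434.5 and 364.4 in sham. Neither region overlapped with sham at 4 h, and both changes passed, at 1.16 ± 0.30 in the infarct (limma adjusted p = 0.00824) and 1.14 ± 0.30 in remote tissue (adjusted p = 0.0377). The infarct call was lost without sham array 3 (1.02, adjusted p = 0.0529). The remote call was lost without remote array 1 or 2 or sham array 2 or 3 (changes of 1.00 to 1.11, adjusted p of 0.139 to 0.179), and at adjusted p of 0.0503 to 0.0665 with no filter, with the 2 groups alone, with a smaller offset and with quantile normalization.

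By 24 h Lcn2 read 4490.2, 4792.7 and 4374.1 in the infarct and 3982.2, 5017.7 and 3198.7 in remote tissue. Sham tissue read 913, 553.2 and 1008.2. Both injured regions lay above sham and overlapped each other, and the changes were 2.43 ± 0.30 in the infarct (limma adjusted p = 1.89e-08) and 2.26 ± 0.30 in remote tissue (adjusted p = 1.87e-06). At 48 h the infarct read 2566.8, 2817.3 and 4165.9, remote tissue read 3501.4, 4530.1 and 4835.1, and sham read 283.2, 422 and 642.9. The changes of Lcn2 were 2.74 ± 0.30 (adjusted p = 7.49e-10) and 3.18 ± 0.30 (adjusted p = 8.9e-10). At 1 week Lcn2 read 855, 456 and 268.4 in the infarct, 2002.2, 666.7 and 773.8 in remote tissue and 179.4, 164.1 and 123.2 in sham. It was higher than sham by 1.39 ± 0.30 in the infarct (adjusted p = 0.000122) and by 2.41 ± 0.30 in remote tissue (adjusted p = 5.42e-08). At 8 weeks all 9 arrays of the 3 regions lay between 82.8 and 270.9, and neither change passed.

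Infarct and remote tissue were compared directly, with pieces of the same title number as a block. At 24 h S100a8 was higher in the infarct by 2.60 ± 0.44 (limma adjusted p = 1.46e-05) and S100a9 by 2.92 ± 0.50 (adjusted p = 2.03e-05). The regions overlapped on 1 infarct and 1 remote array for S100a8, at 2230.5 and 2401.9, and did not overlap for S100a9. At 48 h the differences were 3.31 ± 0.43 (adjusted p = 4.31e-08) and 3.44 ± 0.49 (adjusted p = 3e-07), with no overlap for either gene. With the spread of only the 2 groups, S100a8 at 24 h had an adjusted p of 0.0592. At 4 h neither S100 gene differed by the test, at -0.82 ± 0.43 for S100a8 (95% interval -1.69 to 0.04) and -0.51 ± 0.49 for S100a9 (95% interval -1.49 to 0.48). Lcn2 160564_at did not pass at 4 h, at 0.02 ± 0.28, at 24 h, at 0.17 ± 0.29 (95% interval -0.41 to 0.75), or at 48 h, at -0.44 ± 0.28 (95% interval -1.01 to 0.12). At 1 week it was lower in the infarct than in remote tissue, by -1.02 ± 0.28 (adjusted p = 0.00311). Without infarct array 3 that difference was -0.68 (adjusted p = 0.0804), without remote array 1 it was -0.60 (adjusted p = 0.108), and with the 2 groups alone the adjusted p was 0.148. S100a8 at 1 week went the other way, at 1.20 ± 0.43 (adjusted p = 0.023). That call was lost without infarct array 2 (0.85), remote array 1 (1.07) or remote array 2 (1.03), at adjusted p of 0.0923 to 0.169. S100a9 did not pass at 1 week, at 1.14 ± 0.49 (adjusted p = 0.0598), and passed without infarct array 3 (1.47, adjusted p = 0.039) or remote array 3 (1.48, adjusted p = 0.0291).

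**Figure D2:**
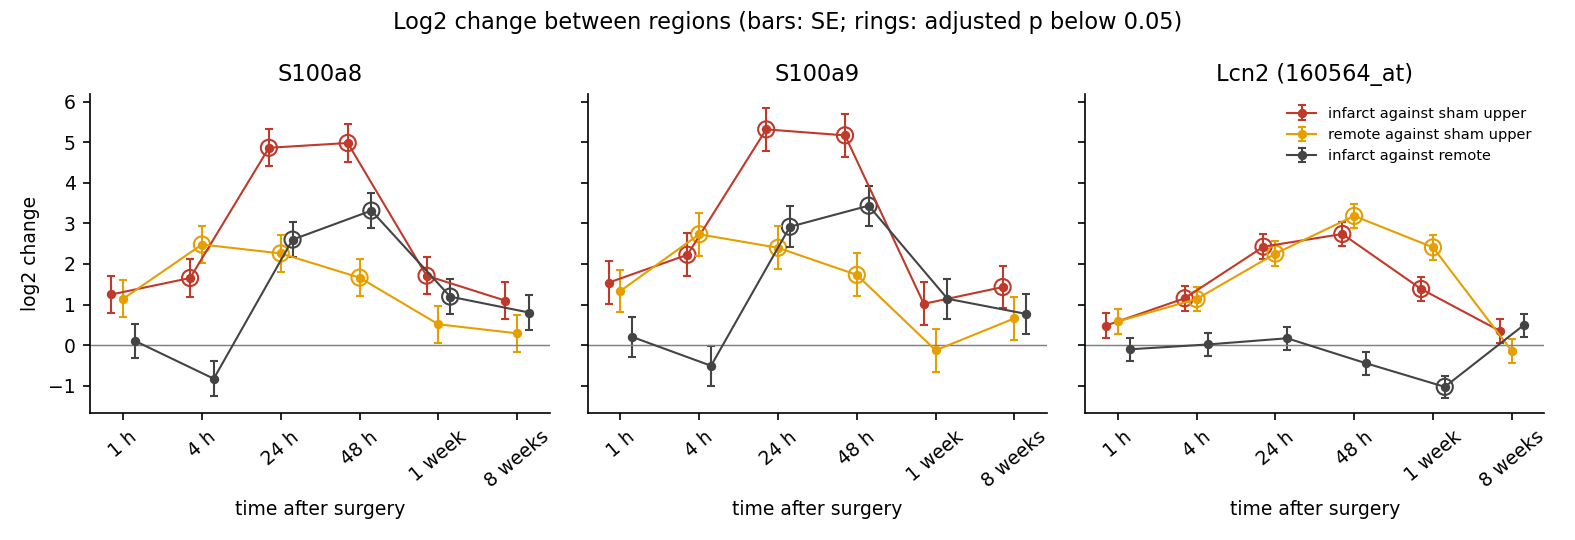
Log2 change (points, bars of 1 SE, n = 3 arrays per group) of S100a8, S100a9 and Lcn2 probe set 160564_at for infarct against sham, remote against sham and infarct against remote at each time after surgery; rings mark limma adjusted p below 0.05. The S100 genes differ between infarct and remote tissue by 2.60 to 3.44 at 24 h and 48 h, where Lcn2 lies at 0.17 and -0.44.

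Counts over the 7 probe sets are read against the share of all tested probe sets called in the same direction. Against sham, 3 probe sets were called higher in the infarct at 4 h, where 5.15% of all 8140 were, and these were S100a8, S100a9 and Lcn2 160564_at. The same 3 were called at 24 h and 48 h, where 18.3% and 24.6% of all probe sets were called higher. At 1 week 3 were called higher (34.1% of all), with Camp in place of S100a9, and at 8 weeks 1 was (11.1% of all). At 1 h 0 were called higher by limma (3.5% of all; S100a8 and S100a9 were higher at an unadjusted p below 0.05). In remote tissue 3 were called higher at 4 h, 24 h and 48 h, where 1.29%, 2.59% and 4.14% of all probe sets were. At 1 week 2 were called higher (19.6% of all), Lcn2 and Camp, and at 1 h and 8 weeks 0 were, where 5.01% and 0.086% of all were; at an unadjusted p below 0.05, 2 were higher at 1 h, S100a8 and S100a9, and 0 at 8 weeks. Both sets of comparisons used the same sham arrays. Between infarct and remote tissue 2 were called higher in the infarct at 24 h (15.1% of all) and at 48 h (23.6% of all), both S100 genes, and 1 at 1 week (22.2% of all). At 1 h 1 was, Camp (2.81% of all), and at 4 h and 8 weeks 0 were (0.627% and 3.44% of all; at an unadjusted p below 0.05, 0 and 1, the latter Camp). Called lower in the infarct were Lcn2 161684_r_at at 48 h (22.5% of all) and Lcn2 160564_at at 1 week (16.9% of all).

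Time was tested as a factor of its own with limma's F test over the 6 times. The infarct effect differed between times for 4 of the 6 tested probe sets (62.6% of all), at adjusted p of 1.4e-07 for S100a8, 6.63e-07 for S100a9, 7.39e-06 for Lcn2 160564_at and 0.0356 for Lcn2 161684_r_at. The remote effect differed for 5 of 6 (25.4% of all), with the smallest adjusted p, 1.53e-06, for Lcn2 160564_at, 0.0294 for S100a8 and 0.0219 for S100a9. The others were Ltf (adjusted p = 0.0151) and Camp (adjusted p = 0.0453), both dim. Ltf reached the filter value on 3 arrays, of which 2 were sham arrays at 1 h, so its result is not independent of the filter. The difference between infarct and remote tissue itself varied over time for 4 of 6 (48.3% of all), S100a8, S100a9, Lcn2 160564_at and Camp.

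Steps between neighbouring times show when these effects moved. The infarct effect on S100a8 grew by 3.21 ± 0.65 from 4 h to 24 h (limma adjusted p = 0.00055) and dropped by 3.27 ± 0.65 from 48 h to 1 week (adjusted p = 0.000252). For S100a9 it grew by 3.09 ± 0.74 (adjusted p = 0.00328) and then dropped by 4.15 ± 0.75 (adjusted p = 7.13e-05). The infarct effect on Lcn2 160564_at grew by 1.27 ± 0.43 over the first step (adjusted p = 0.035, and 0.064 with a smaller offset) and dropped by 1.35 ± 0.43 (adjusted p = 0.017). Of all probe sets, 7.99% had a growing infarct effect from 4 h to 24 h and 10.6% a falling one from 48 h to 1 week. In remote tissue the effect on Lcn2 160564_at dropped by 2.55 ± 0.43 from 1 week to 8 weeks (adjusted p = 0.000137; 8.14% of all probe sets fell there). The remote effect on S100a8 or S100a9 had no neighbouring step that passed. The difference between infarct and remote tissue grew from 4 h to 24 h by 3.42 for S100a8 (adjusted p = 0.000179) and by 3.42 for S100a9 (adjusted p = 0.000905; 6.22% of all probe sets grew). From 48 h to 1 week it dropped by 2.12 for S100a8 (adjusted p = 0.0222) and by 2.29 for S100a9 (adjusted p = 0.0303; 4.79% of all probe sets fell). For S100a9 that call was lost without the block on title number (adjusted p = 0.0562) and with a smaller offset (adjusted p = 0.104). For Lcn2 160564_at the difference grew by 1.52 from 1 week to 8 weeks (adjusted p = 0.00975; 5.37% of all probe sets grew).

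In sham tissue Lcn2 differed between times, and the S100 genes did not pass. There was no unoperated group, the sham mice of each time were different ones by title number, and the cause of the course was not tested. Over the 6 times, limma's F test gave an adjusted p of 9.63e-08 for Lcn2 160564_at, 0.653 for S100a8 and 0.392 for S100a9, and 19.6% of all probe sets passed. By the same test Ltf also passed (adjusted p = 0.0196) and Camp did not (adjusted p = 0.318). Ltf read 132, 34.3 and 123 in sham at 1 h, and it reached the filter value only through those high sham arrays and 1 remote array. Against sham at 1 h, Lcn2 was higher by 1.87 ± 0.30 at 4 h (adjusted p = 0.000156), 2.64 ± 0.30 at 24 h (adjusted p = 2.64e-07) and 1.81 ± 0.30 at 48 h (adjusted p = 0.000314). Of all probe sets, 1.86%, 6.45% and 3.61% were called higher at those times. The sham arrays reached 1008.2 at 24 h and were back at 82.8 to 177.9 by 8 weeks. The change of Lcn2 against sham at 24 h is thus measured on a raised control. The 5 lower sham pieces read 97.5, 656.7, 1117.5, 623.2 and 97.9 for Lcn2 from 1 h to 1 week. Lower and upper pieces of the same 5 mice gave no call for any of the 6 tested probe sets (limma, 0% of all 8140 called; 1 of the 6, S100a8, had an unadjusted p below 0.05, at 0.0472).

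The 2 probe sets of Lcn2 gave different accounts of the gene. Probe set 161684_r_at read 176.4, 237.7 and 226.3 in sham tissue at 24 h, 205.4, 281.8 and 384.8 in the infarct and 194.3, 230.5 and 209.6 in remote tissue. Those 3 groups overlapped, where 160564_at had separated both regions from sham. Over all 59 arrays 161684_r_at lay between 122.3 and 572.3, while 160564_at ran from 76.5 to 5017.7. The within-array log2 difference of the 2 probe sets was larger in the infarct than in sham by 1.49 on average over 18 arrays each (two-sided permutation test within times, 100000 resamples, p = 1e-05, the smallest they can give). By time the excess was 0.91 at 1 h, 1.04 at 4 h, 2.09 at 24 h, 3.02 at 48 h, 1.09 at 1 week and 0.80 at 8 weeks. Their 18 group means of infarct, remote and sham tissue had a Pearson correlation of -0.002. That the 2 probe sets disagree was known from these data before the test, so its p value is not independent evidence of it. Such a difference within an array shows unequal change and not which probe set follows the gene. The single call of 161684_r_at between regions was a lower level in the infarct than in remote tissue at 48 h, at -0.52 ± 0.19 (limma adjusted p = 0.0248; 22.5% of all probe sets were called lower). It rested on remote array 3, at 572.3 where arrays 1 and 2 read 189 and 233.2; without it the difference was -0.10 (adjusted p = 0.673). It was also lost without infarct array 2 (-0.46, adjusted p = 0.0931) or 3 (-0.49, adjusted p = 0.0681), with the 2 groups alone (adjusted p = 0.264) and with a fixed block (adjusted p = 0.199). The time course of 161684_r_at in sham tissue passed (F test, adjusted p = 0.00478), with its highest mean at 1 h, at 289.8, 404 and 334.7, where 160564_at had its lowest.

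**Figure D3:**
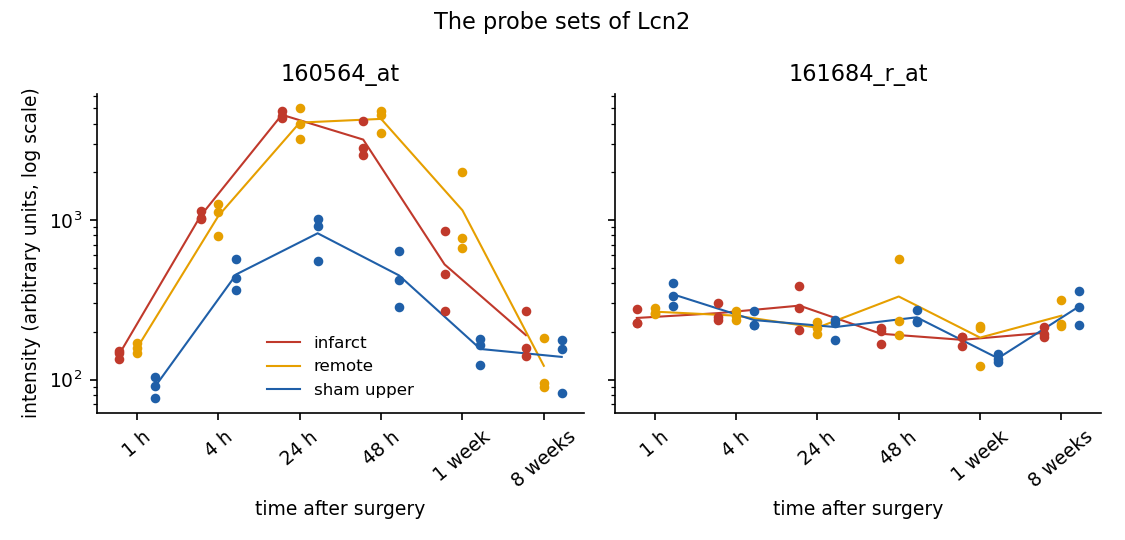
Intensity on each array (points, log scale, arbitrary units) of the 2 probe sets of Lcn2 against time after surgery, with lines through the means of 3 arrays per region. Probe set 160564_at runs from 76.5 to 5017.7, and 161684_r_at stays between 122.3 and 572.3 with overlapping regions at 24 h.

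The secondary granule genes Camp, Ltf and Ngp were dim. Camp (92322_at) lay between 19.8 and 259.7 over all arrays and reached the filter value on 15 of 59, Ltf (101115_at) lay between 8.7 and 132 and reached it on 3, and Ngp (96153_at) reached it on 1. At 24 h Camp read 49.2, 99.9 and 142.3 in the infarct and 49.4, 104.8 and 50 in sham. Those groups overlapped. Ltf read 19.1, 22.6 and 32.3 in the infarct and 19.4, 21.3 and 24.6 in sham, which also overlapped.

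Camp passed at 1 week, with 141.1, 92.3 and 205.6 in the infarct, 62.6, 114.6 and 157.8 in remote tissue and 41.9, 19.8 and 41.2 in sham. Both regions lay above sham, by 1.23 ± 0.31 in the infarct (limma adjusted p = 0.000671) and by 0.94 ± 0.31 in remote tissue (adjusted p = 0.0145). The sham arrays of that week were among the lower ones for Camp in the series. Array 3 was the highest for Camp in both regions. In the infarct its adipocyte marker sum was 4485, against 1960 and 1562 on arrays 1 and 2, and its cardiomyocyte sum was 22510, against 74710 and 77030. In remote tissue its adipocyte sum was 3092, against 1831 and 1247, and its macrophage and monocyte sum 47340, against 31050 and 32460. The part of these cells in the result was not tested. The remote call was lost without remote array 3 (0.76, adjusted p = 0.0892) or sham array 2 (0.80, adjusted p = 0.0745). In remote tissue at 4 h Camp read 152.4, 111.5 and 125, above sham at 60.9, 45.7 and 46.9. Of all tested probe sets, 11.2% lay above sham without overlap there. The change of 0.85 did not pass (adjusted p = 0.194), nor did it without any 1 array. With the 2 groups alone it passed (adjusted p = 0.023). At 1 h Camp was higher in the infarct, at 259.7, 46 and 97.5, than in remote tissue, at 24.3, 53.1 and 23.8 (1.02 ± 0.29, adjusted p = 0.031; 2.81% of all probe sets were called higher). The arrays overlapped, and the call was lost without infarct array 1 (0.54, adjusted p = 0.427) or 3 (1.08, adjusted p = 0.0629), without remote array 1 (0.88, adjusted p = 0.176) or 3 (0.94, adjusted p = 0.115), without the block on title number (adjusted p = 0.0601), with it as a fixed term (adjusted p = 0.294) and with the 2 groups alone (adjusted p = 0.23). Ltf was lower in remote tissue than in sham at 1 h, with 15, 17.5 and 22.5 against 132, 34.3 and 123. The change was -1.07 ± 0.26 (adjusted p = 0.00819; 2.32% of all probe sets were called lower), without sham array 1 it was -0.86 (adjusted p = 0.0687), and with the 2 groups alone the adjusted p was 0.102. Ltf reached the filter value on 3 arrays, the fewest that the filter allows. These were sham arrays 1 and 3 at 1 h and remote array 1 at 8 weeks, at 124.5. Ltf was thus tested only because it was high in the sham group of this comparison, and the call is not independent of the filter.

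Ngp was at 62.2 or below on 58 of 59 arrays. The exception was infarct array 2 at 24 h, at 408.7, where arrays 1 and 3 read 36 and 62.2. Array 2 was also the highest infarct array at that time for S100a8 and S100a9, and had the highest summed neutrophil marker intensity, 5993 against 5259 and 3317. Since Ngp failed the filter, it was tested only when all 10833 probe sets with 1 gene were kept. It was then 1.25 ± 0.27 above sham at 24 h (limma adjusted p = 0.000326), and 0.51 (adjusted p = 0.0107) without array 2. Without array 1 the change was 1.73 and without array 3 it was 1.53. All 3 infarct arrays lay above the sham arrays, at 17.9, 25.8 and 18.9, as was so for 20.8% of the 8140 tested probe sets. That sham group had the lowest Ngp mean of the 18 groups of infarct, remote and sham tissue. Sham arrays at 8 weeks read 43.3, 28.2 and 49.2, a range that includes infarct array 1 at 24 h.

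**Figure D4:**
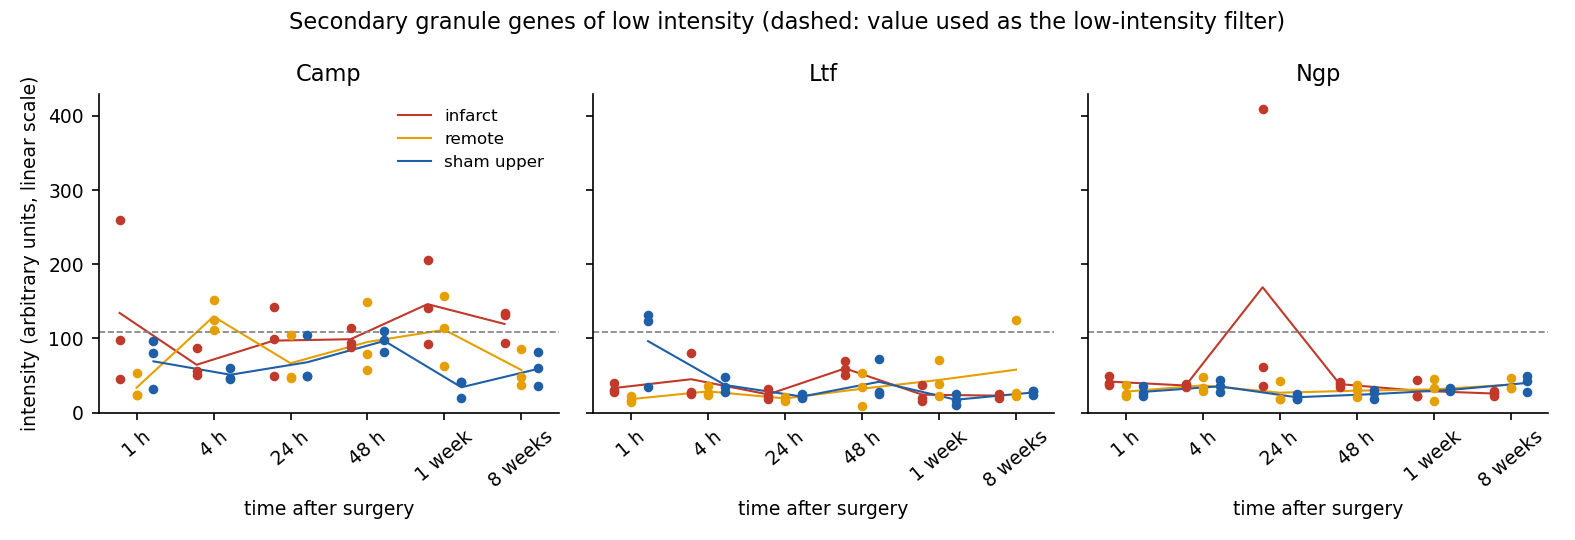
Intensity on each array (points, linear scale, arbitrary units) of Camp, Ltf and Ngp against time after surgery, with lines through the means of 3 arrays per region; the dashed line marks the filter value of 108.2. Ngp exceeds the line on 1 array, at 408.7, and Ltf on 3 arrays, up to 132.

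Other genes of the neutrophil were read from lists chosen with earlier results of these data known. Of 21 tested probe sets for surface and motility genes, 21 were called higher in the infarct at 24 h (18.3% of all probe sets) and 21 at 48 h (24.6% of all), with a median change of 3.04 at 48 h against -0.05 over all probe sets. Il1r2 (102658_at), a decoy receptor for interleukin 1, read 1040.4, 1455.8 and 957.2 in the infarct at 24 h and 53, 58 and 107.1 in sham, and rose by 3.37 ± 0.25 (limma adjusted p = 7.06e-14). Csf3r (95808_g_at), the receptor for granulocyte colony-stimulating factor, rose by 3.16 ± 0.37, and Fpr2, a receptor for formylated peptides, by 3.06 ± 0.25. In remote tissue 5 of the 21 were called higher at 4 h, 2 at 24 h and 3 at 48 h (1.29%, 2.59% and 4.14% of all). The remote count was highest at 1 week, at 13 of 21 (19.6% of all), with a median change of 1.03 against 0.06 over all probe sets, when neither S100 gene passed there. Remote Il1r2 read 471.8, 201.2 and 368 at 4 h, and array 1 was the highest for Il1r2 as it was for S100a8.

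Granule genes other than the members did not share a single course. Of 17 tested probe sets of other secondary and tertiary granule genes, 13 were called higher and 1 lower in the infarct at 24 h (18.3% and 22.4% of all). In remote tissue 0 were called higher by limma at 24 h (1, Arg1, at an unadjusted p below 0.05) and 9 at 1 week (2.59% and 19.6% of all). In the infarct at 24 h Mmp8, the neutrophil collagenase, read 224.4, 397.1 and 86.8, against 16.4, 29 and 21.1 in sham. It rose by 1.90 ± 0.25 (limma adjusted p = 5.2e-08). Its infarct arrays ranked as they did for S100a8, with array 2 highest and array 3 lowest. Pglyrp1, a peptidoglycan binding protein of granules, rose in the infarct at 24 h by 1.66 ± 0.22 (adjusted p = 6.23e-08). Arg1 and Chil3 on that list also rose in the infarct at 24 h, by 5.02 ± 0.61 and 3.63 ± 0.42. Both are made by mouse macrophages too. Of 5 tested probe sets of primary granule genes, 2 were called higher in the infarct at 24 h and 3 at 1 week (18.3% and 34.1% of all). Those at 1 week were of Lyz2 (2.94 ± 0.35, adjusted p = 1.87e-09), Serpinb1a (1.40 ± 0.19, adjusted p = 3.85e-08) and Prtn3. Lyz2 is also on the list of macrophage and monocyte markers. Prtn3, a serine protease of primary granules, was higher at 1 week by 0.92 ± 0.23 (adjusted p = 0.000582), at 87.3, 65.6 and 139.6 against 43.4, 29.3 and 14.4 in sham. Its infarct arrays at 24 h, at 61.7, 73.2 and 76.9, overlapped with sham, at 67.8, 101.7 and 95.2.

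Attracting signals passed the test at 1 h, when the S100 genes did not. Of 18 tested probe sets for neutrophil attraction and granulopoiesis, 8 were called higher in the infarct at 1 h and 7 in remote tissue (3.5% and 5.01% of all). Cxcl1, a ligand of the neutrophil receptor Cxcr2, read 1952, 3053.2 and 3354.6 in the infarct at 1 h, 1848.6, 1404.4 and 1975.1 in remote tissue and 87.2, 110.6 and 176.7 in sham. By 24 h remote Cxcl1 had come down to 167.3, 504.3 and 840.4, with array 3 the highest as for S100a8, while the infarct read 3592.3, 5623 and 5386.9. The probe set for another Cxcr2 ligand, Cxcl2, was above sham by 5.79 ± 0.44 in the infarct at 24 h (limma adjusted p = 9.09e-14). In remote tissue it was 3.22 above sham at 4 h (adjusted p = 3.48e-06) and 1.46 at 24 h, where it did not pass (adjusted p = 0.0505).

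Of 7 tested probe sets for receptors of S100a8, S100a9 or Lcn2 and their adaptors, 3 were called higher and 3 lower in the infarct at 48 h, where 24.6% and 24.8% of all probe sets were. Emb, a receptor of the S100a8 and S100a9 dimer, rose by 2.83 ± 0.33 (limma adjusted p = 3.08e-09), Cd14, the coreceptor of Tlr4, by 2.95 ± 0.31, and Myd88, the adaptor behind Tlr4, by 2.20 ± 0.19. Bsg, a relative of Emb, fell by 0.96 ± 0.12 (adjusted p = 8.27e-09). Cebpd, a CCAAT/enhancer binding protein, was on the list of granulocyte transcription factors, of which 10 of 12 tested probe sets were called higher in the infarct at 24 h (18.3% of all). It rose by 1.96 in the infarct (adjusted p = 1.31e-11) and by 1.33 in remote tissue (adjusted p = 2.29e-06) at 24 h.

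Of 13 tested probe sets of other S100 genes, 4 were called higher and 2 lower in the infarct at 24 h, where 18.3% and 22.4% of all probe sets were. At 48 h 3 were called higher and 2 lower (24.6% and 24.8% of all), and at 1 week 7 higher and 1 lower (34.1% and 24.3% of all). S100a4, made by fibroblasts and macrophages among other cells, was highest at 1 week, at 3038.5, 2801.4 and 3219.8 against 118.7, 141.2 and 142.4 in sham (4.09 ± 0.30, limma adjusted p = 9.5e-15). S100a1, the form of heart muscle, fell at 1 week from 9940.7, 10180.8 and 8949 in sham to 2319.4, 2177.6 and 1166.7 in the infarct, by 2.39 ± 0.16 (adjusted p = 8.87e-16). Among 9 tested probe sets of other lipocalin and transferrin family genes, 1 was called higher and 3 lower in the infarct at 24 h (18.3% and 22.4% of all). The 3 tested probe sets of cystatin type inhibitor genes, the relatives of Ngp and Camp, were called 1 higher and 1 lower at 24 h (18.3% and 22.4% of all) and 3 higher at 8 weeks (11.1% of all).

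The neutrophil identity was checked against markers that are not members. Of 19 neutrophil markers, 12 were measured, and their summed intensity was 554.6 to 1203 in upper sham tissue, 3317 to 5993 in the infarct at 24 h, 7815 to 10950 at 48 h and 4133 to 4572 at 1 week. In remote tissue the sum was 1473 to 2076 at 4 h, 992.8 to 1696 at 24 h, 1163 to 1440 at 48 h and 1573 to 2464 at 1 week. It was thus above every upper sham array at 4 h, when remote S100a8 and S100a9 passed. The same held at 1 week, when neither passed (0.52 and -0.13). The lower sham piece at 1 h had a sum of 1766. S100a8 in the infarct was at 6055.7 or above at 48 h and at most at 1226.1 at 1 week, while the neutrophil sum stayed above every sham array. The sum of 14 measured macrophage and monocyte markers took the later course, at 12400 to 23210 at 24 h, 23260 to 38940 at 48 h and 56880 to 66330 at 1 week, against 7845 to 12980 in sham. No marker of either list read 0 on any array. Heart muscle markers, led by Myh6, the heavy chain of cardiac myosin, were measured on every array. In remote tissue at 4 h, when both S100 genes were called higher, their sum was 199900 to 209400, against 187800 to 224600 in sham. In the infarct the sum was below sham at 48 h and lowest at 1 week, when S100a8 and S100a9 had come down. This infarct sum was 112800 to 146400 at 48 h, against 195300 to 238700 in sham. At 1 week it was 22510 to 77030, against 199800 to 226800 in sham. The part of these cell types in the course of S100a8, S100a9 or Lcn2 was not tested.

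**Figure D5:**
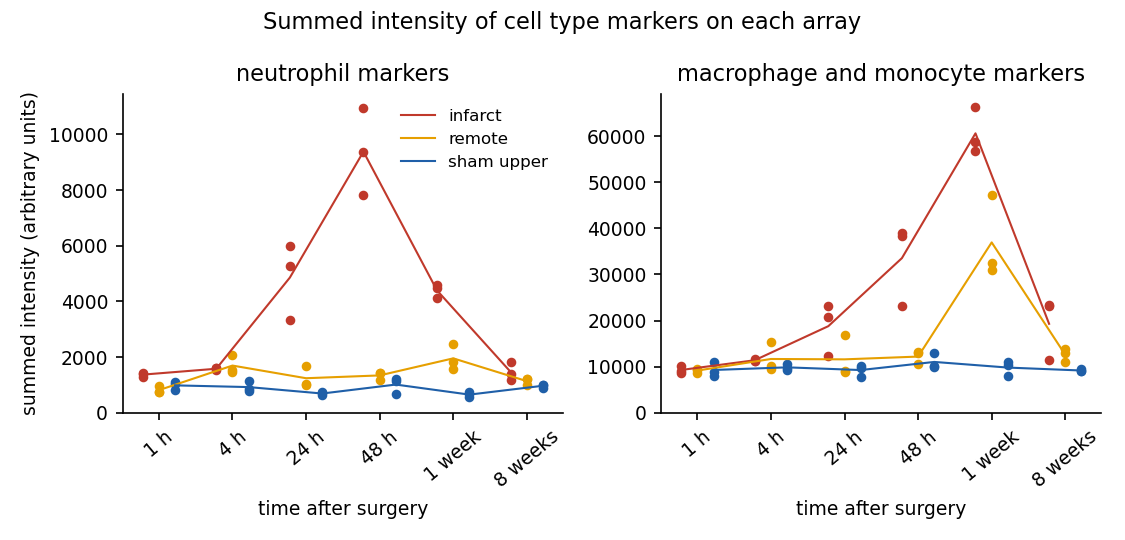
Summed intensity (points for each array, linear scale, arbitrary units) of 12 neutrophil markers and of 14 macrophage and monocyte markers, none of them S100a8, S100a9, Lcn2, Camp, Ltf or Ngp, against time after surgery, with lines through the means of the arrays of a region. The neutrophil sum is highest in the infarct at 48 h, at 7815 to 10950, and the macrophage and monocyte sum at 1 week, at 56880 to 66330.

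Likeness was measured as the Pearson correlation over the 18 group means of infarct, remote and sham tissue, among 8134 tested probe sets other than the members. It is a description, since the group means share arrays and scaling. The probe sets most like S100a8 were both of Il1r2 (0.975 and 0.974) and Il1b (0.949), and those most like S100a9 were the same 3 (0.946 to 0.956). S100a8 and S100a9 themselves correlated at 0.986, and each correlated with Lcn2 160564_at at 0.72 and 0.698. The probe sets most like Lcn2 160564_at were Uck2 (0.902), Stat3 (0.895) and Serpina3n (0.886), of which Serpina3n encodes an acute phase protease inhibitor and Stat3 a transcription factor downstream of interleukin 6. Those most like Camp were Cdca7l (0.846), H2-M10.1 (0.795) and Csf3r (0.773). For Ltf they were Nkx1-2 (0.822), Sema6c (0.743) and Sin3b (0.734), and for Ngp, whose means rest on 1 array, Hamp (0.921), Ccl4 (0.844) and Ero1a (0.841).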

How the data were processed

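Per the labels, each array was hybridised with total RNA of 1 piece of ventricle. The deposited values were linear intensities; what scaled them, and to which target, is not given in the sources used here; the mean between the 2nd and 98th percentiles was 499.2 to 499.9 on every array. Depth has no meaning for arrays, and 3 arrays per group limit the precision. Of 12488 probe sets, 10833 were assigned to exactly 1 gene, and the 8140 that reached 108.2 (40th percentile) on at least 3 arrays were tested. After 45.6 was added (0.25 times the median), log2 values were fitted in R 4.3.3 with limma 3.58.1, 1 model of 23 groups over 59 arrays, title number as random block (correlation 0.137), 36 residual and 4.51 prior degrees of freedom, Benjamini-Hochberg over all probe sets within a comparison. Array medians were 157 to 214, the lowest correlation within a group was 0.951, and 0 pairs of arrays were identical. The Gapdh 3′ to 5′ ratio was 0.756 to 0.953.

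The genes and lists were chosen with earlier results of these data known, and the contrasts of sham against 1 h and of infarct against remote over time, and the test of Ngp without the filter, were added after values had been seen. Genes named besides the members were up to 4 per list with the smallest adjusted p for infarct against sham at the time with most calls, up to 3 markers per cell type by mean, and the 3 probe sets most alike to each member. The calculations were tested on simulated data. As alternatives, the offset was 0.05 or 1 times the median, arrays were quantile normalized, and the fit was run with no filter, 1 probe set per gene, no or a fixed block, only the 2 groups compared, lower sham arrays added to the control, and each array left out.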

Additional observations from a re-analysis of the deposited data

Results flagged for a closer look

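Changes that differed between times or between regions by a limma test of the difference itself are collected here as log2 values. The infarct effect, infarct minus sham, changed from 4 h to 24 h by 3.21 for S100a8, 3.09 for S100a9 and 1.27 for Lcn2 160564_at. From 48 h to 1 week it changed by -3.27 for S100a8, -4.15 for S100a9, -1.35 for Lcn2 160564_at and 1.21 for Camp (adjusted p = 0.037, and 0.97 with an adjusted p of 0.0939 under quantile normalization). From 1 week to 8 weeks it changed by -0.74 for Lcn2 161684_r_at (adjusted p = 0.0473, but 0.0674 with the offset of 1 times the median and 0.19 under quantile normalization). The remote effect changed by -2.55 for Lcn2 160564_at from 1 week to 8 weeks. The difference between infarct and remote tissue also changed between times, as given above with the steps between neighbouring times, and for Lcn2 161684_r_at by -0.86 from 24 h to 48 h (adjusted p = 0.0468, and 0.0514 with the smaller offset). Infarct and remote tissue differed at 24 h by 2.60 for S100a8 and 2.92 for S100a9, and at 48 h by 3.31 for S100a8, 3.44 for S100a9 and -0.52 for Lcn2 161684_r_at. At 1 week they differed by 1.20 for S100a8 and -1.02 for Lcn2 160564_at, and at 1 h by 1.02 for Camp.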

How the results depend on the processing

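The rises of S100a8, S100a9 and Lcn2 160564_at against sham at 24 h and 48 h in the infarct kept their call under every alternative run, as did those of Lcn2 in remote tissue at 24 h, 48 h and 1 week. Under quantile normalization the median change of all probe sets moved by -0.187 in the infarct and -0.116 in remote tissue at 1 week, and the change of Lcn2 161684_r_at against sham in the infarct at 1 week went from 0.30, not called, to -0.018. The excess of the Lcn2 probe sets' difference in the infarct was 1.23 to 1.60 under the alternatives run. A fit on only the 2 groups compared called 1 probe set instead of 2 or 3 for infarct against remote at 24 h and 1 week and for remote against sham at 24 h, and 0 instead of 1 for infarct against remote and remote against sham at 1 h and for infarct against sham at 8 weeks. The last was also 0 with no filter and with the offset of 1 times the median. That offset and quantile normalization gave 0 calls, not 1, for the change of the infarct effect from 1 week to 8 weeks, and the offset gave 1, not 0, for the remote effect from 48 h to 1 week. Lower sham arrays in the control gave 1 call, not 0, for infarct against sham at 1 h, and also called S100a9 in the infarct at 1 week (1.17, adjusted p = 0.0322).

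Infarct and remote arrays shared title numbers, apart from array 3 at 24 h. Of 17 such pairs, 7 had deviations correlated above 0.1 (lowest -0.106, median 0.0363, highest 0.412), and the labels do not say that a number is a mouse. With no replicate block, and with a fixed replicate block, infarct against remote at 1 h gave 0 calls, not 1. With no replicate block 3 single changes in all lost their call.

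Leaving out 1 array at a time, the number of members called ranged from 0 to 1 for infarct against sham at 1 h and 8 weeks, remote against sham at 1 h and infarct against remote at 1 h. It ranged from 2 to 3 for infarct against sham at 4 h, remote against sham at 4 h and 24 h and infarct against remote at 48 h. It ranged from 3 to 4 for infarct against sham at 1 week, 1 to 2 for remote against sham at 1 week, 1 to 3 for remote against sham at 48 h and 0 to 3 for infarct against remote at 1 week. Intensities near the filter value limit what can be said of Camp, Ltf and Ngp.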

Other observations

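The 3 probe sets most like Lcn2 161684_r_at over the 18 group means were Gcdh (162189_r_at, 0.892), Bnip2 (161712_r_at, 0.881) and Pold1 (161528_r_at, 0.88). All 3 have identifiers that end in _r_at, as do 411 of the 8140 tested probe sets (5.05%). This was noticed after the values were seen and was not tested.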
